A study of Mus musculus with 12 samples.

Results

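Semaphorins are signaling proteins best known for steering axons and migrating cells. The genes described here are Sema7a, Plxnc1, which encodes plexin C1, the receptor of Sema7a, and 8 further semaphorin genes of mouse bone marrow mesenchymal stromal cells (MSCs): Sema3a, Sema3b, Sema3c, Sema3d, Sema3e, Sema3f, Sema4b and Sema4c. These 10 of the 55487 genes in the count table were chosen by the measured level of Sema7a, which was among the largest rises in treated cells, together with genes of its family and its receptor. Its level against control is therefore given as a description with no test, and it is left out of all counts of genes that differ from control. Of the 10, 8 had enough reads to be among the 11314 protein-coding genes tested, while Sema3b and Plxnc1 did not.

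RNA was sequenced from 12 samples of primary MSCs with wild type genotype and the C57BL/6 background, grown from the bone marrow of female mice of 6 to 8 weeks by selection of adherent cells. The control group, labeled Negative, was untreated, the A1 group received 50 μM A1 for 6 h, and the A1-OVA group received 50 μM A1 with 1 mg/mL ovalbumin (OVA, the egg white protein used as a model antigen) for 6 h, with 4 samples each. A1 is a variant of the Accum molecule, in which a bile acid is joined to a peptide with a nuclear localization signal. The labels also hold an unclear mention of insulin, without a dose, for the A1-OVA medium alone. Whether insulin was in it is not known, and in A1-OVA against A1 an effect of insulin and one of OVA cannot be told apart. An OVA group without A1 was not analysed here. The sources used here do not say whether the 4 samples of a group came from separate cultures or mice, so that p-values measure only the spread between these samples, which may be technical.

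Each sample had 13702348 to 16881995 counts. The A1 libraries (13702348 to 14347870) lay below the control libraries (15644991 to 16881995), and the part of depth in the results was not tested. Levels are given as CPM, counts scaled to library size, with sizes set by TMM on the premise that most genes do not change. Against control, 62.7% of tested genes differed with A1 and 57.6% with A1-OVA, and whether the premise holds was not tested. Of 11 MSC markers, 9 were tested. Col1a1, which encodes a chain of type I collagen, averaged 3330 ± 289 CPM in controls (SD, n = 4). Other markers were near the floor: Thy1 had 17 counts in control sample 2 and 0 to 3 in the others, Nt5e 7 to 14 and Lepr 6 to 16. Leukocyte markers were nearly absent: 10 of 11 leukocyte markers did not reach the filter and the pan-leukocyte gene Ptprc had at most 4 counts. The exception was Cd14, at 7.59 ± 0.159 CPM in controls and 11.3 ± 0.957 with A1 (SD, n = 4 each). The 6 endothelial markers had at most 5 counts.

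Semaphorins fall into classes by structure. Class 3 members are secreted and mostly act through a neuropilin that holds the ligand and a class A plexin that passes the signal on, although Sema3e binds plexin D1 directly. Class 4 members span the membrane and act mainly through class B plexins, and Sema7a is tethered to the membrane by a lipid anchor and acts through plexin C1 or through integrins with a beta 1 chain. In the bone marrow, Sema3a is known for restraining osteoclasts and favoring osteoblasts, and Sema7a is known in other settings for its roles in inflammation and cell adhesion.

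The stretches of DNA before the transcript starts of 4 members are shown. Of these 4, Sema7a rose, Sema3e and Sema3d fell and Sema4c stayed close to control. Sema4b, which also rose, is not shown. Each stretch is the 250 bases before the RefSeq start (assembly GRCm38.p6), 5′ to 3′ in the direction of transcription. This start is the one GENCODE gives for Sema7a and Sema3e and lies before it for Sema3d and Sema4c. Capitals mark the GC box (GGGCGG, or CCGCCC on the other strand) and the AP-1 motif (TGANTCA).
Sema7a, chr9:57939862-57940111, plus strand: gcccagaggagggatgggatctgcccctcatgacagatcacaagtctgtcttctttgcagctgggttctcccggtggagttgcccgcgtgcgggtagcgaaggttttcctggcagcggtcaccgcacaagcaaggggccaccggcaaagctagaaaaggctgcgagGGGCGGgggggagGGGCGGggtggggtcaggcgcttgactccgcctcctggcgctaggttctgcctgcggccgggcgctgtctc
Sema3e, chr5:14025026-14025275, plus strand: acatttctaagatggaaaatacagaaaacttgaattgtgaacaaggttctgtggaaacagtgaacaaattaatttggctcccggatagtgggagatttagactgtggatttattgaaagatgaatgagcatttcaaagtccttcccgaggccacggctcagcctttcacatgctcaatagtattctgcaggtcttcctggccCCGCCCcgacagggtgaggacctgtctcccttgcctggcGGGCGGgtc
Sema3d, chr5:12382916-12383165, plus strand: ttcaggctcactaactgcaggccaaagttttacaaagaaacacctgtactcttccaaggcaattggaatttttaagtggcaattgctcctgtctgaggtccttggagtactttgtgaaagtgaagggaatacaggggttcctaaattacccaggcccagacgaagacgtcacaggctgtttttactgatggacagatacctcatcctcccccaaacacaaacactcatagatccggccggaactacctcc
Sema4c, chr1:36558382-36558631, minus strand: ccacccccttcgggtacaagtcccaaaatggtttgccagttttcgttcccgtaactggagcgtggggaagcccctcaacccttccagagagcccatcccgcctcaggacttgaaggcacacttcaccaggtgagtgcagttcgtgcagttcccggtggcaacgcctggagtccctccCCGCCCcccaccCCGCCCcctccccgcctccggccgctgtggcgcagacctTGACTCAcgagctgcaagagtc

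Sema7a held the GC box 84 and 71 bases before its start and none of the other motifs searched, which were AP-1 (TGANTCA), CRE (TGACGTCA), the E-box (CACGTG), the ATF4 site (TGATGNAA) and a pair of heat shock element units (GAANNTTC). All motifs were searched on both strands in windows that add the 50 bases after the start. Sema3e held the GC box at 48 and 9 bases before the start and an E-box after it, Sema3d held none of the 6 motifs, and Sema4c, in the window shown, held 2 GC boxes and an AP-1 motif 22 bases before the start. The GC box is common, with 35.7% of all 32851 RefSeq windows, against 7.81% for AP-1, 1.79% for CRE, 7.15% for the E-box, 3.97% for the ATF4 site and 7.86% for the heat shock element units. Of the members, 8 had a window and Sema3b and Sema3f had none. The AP-1 letters occurred in Sema4c alone of these 8. The window of Sema3a lies 271370 bases inside the gene as GENCODE draws it and may not be the start used in these cells. A match of letters is no evidence of binding.

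Sema7a (ENSMUSG00000038264, chromosome 9, 57940112 to 57962865, plus strand, GRCm38) stood at 7.92, 6.21, 7.24 and 7.46 CPM in the 4 control samples. With A1 it stood at 104, 117, 119 and 124 CPM, and with A1-OVA at 88.8, 87.2, 92 and 88 CPM. No treated sample came near a control sample, and no A1-OVA sample reached the lowest A1 sample. In counts, the lowest sample had 105 and the highest 1707. The log2 fold change against control was 4.01 with A1, a 16.1-fold higher level, and 3.63 with A1-OVA, a 12.4-fold higher level. Among the 10448 tested genes with an average of at least 1 log2 CPM, Sema7a ranked 2 from the top by log2 fold change with A1 and 6 with A1-OVA. The 4 control samples are shared by these comparisons.

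With A1-OVA the Sema7a level was 0.767 of that with A1 (log2 fold change -0.38, SE 0.05). Sema7a was chosen on these treated samples too, so this is a description with no test. Of the other 7 tested members, 1 was lower with A1-OVA than with A1, Sema3e, against 12.9% of all tested genes that differed between the treatments (6.05% higher and 6.81% lower).

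**Figure D1:**
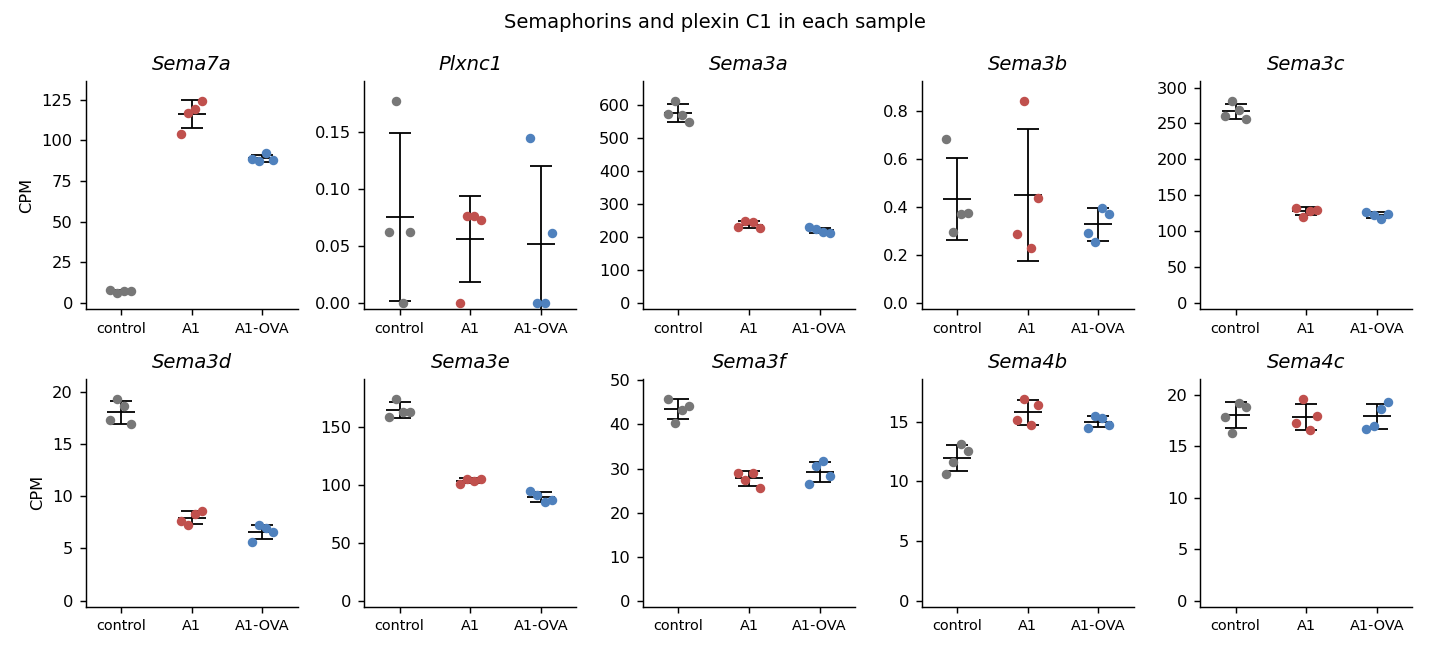
Level of the 10 genes in each of the 12 samples, in CPM on the vertical axis, by group on the horizontal axis (dots are samples, horizontal bars the mean and error bars the SD of 4 samples). Sema7a rises from at most 7.92 to at least 87.2 CPM while the 5 tested class 3 members (Sema3a, Sema3c, Sema3d, Sema3e and Sema3f) fall, and Plxnc1 and Sema3b lie below 1 CPM throughout.

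RNA of plexin C1, the receptor of Sema7a, was at the limit of detection. Plxnc1 (ENSMUSG00000074785, chromosome 10, 94790866 to 94944835, minus strand) had 1, 3, 0 and 1 counts in the control samples, 0, 1, 1 and 1 with A1, and 2, 0, 0 and 1 with A1-OVA. All 12 samples were at or below 3 counts, the limit that a count of 0 allows, which corresponds to 0.177 to 0.229 CPM depending on the library and covers counting error only. No fold change is given for it. A gene start of another protein-coding gene did not lie within 250 kb of the start of Plxnc1.

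Among the class 3 semaphorins, 5 of 5 tested members fell with either treatment, while 31.1% of all tested genes were lower with A1 and 27.9% with A1-OVA. Sema3a, the most abundant of them by CPM, stood at 574, 612, 569 and 548 CPM in controls. It stood at 230, 248, 245 and 229 CPM with A1, and at 230, 225, 216 and 213 CPM with A1-OVA. The treated samples lay far below the controls and overlapped each other. The level fell to 0.413 of control with A1 (log2 fold change -1.27, SE 0.04, adjusted p = 1.97e-16) and to 0.384 with A1-OVA (-1.38, SE 0.04, adjusted p = 6.91e-17). The difference between the treatments was not past the threshold (adjusted p = 0.0993, 95% interval -0.20 to -0.02 in log2).

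Sema3c, known for guiding neural crest cells into the outflow tract of the heart, stood at 261, 281, 269 and 256 CPM in controls. With A1 it stood at 133, 120, 128 and 130 CPM, and with A1-OVA at 127, 123, 117 and 124 CPM. The groups overlapped between the treatments and not with control. It fell to 0.479 of control with A1 (log2 fold change -1.06, SE 0.04, adjusted p = 3.45e-15) and to 0.46 with A1-OVA (-1.12, SE 0.04, adjusted p = 1.56e-15).

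Sema3d was a low member with a fall of similar size. It stood at 17.3, 19.3, 18.6 and 16.9 CPM in controls, at 7.67, 7.25, 8.32 and 8.57 CPM with A1, and at 5.65, 7.22, 6.93 and 6.59 CPM with A1-OVA. It fell to 0.441 of control with A1 (log2 fold change -1.18, SE 0.09, adjusted p = 1.02e-10) and to 0.367 with A1-OVA (-1.44, SE 0.09, adjusted p = 4.46e-12). All A1-OVA samples lay below all A1 samples, the nearest at 7.22 against 7.25 CPM, but this difference missed the threshold (log2 fold change -0.26, 95% interval -0.48 to -0.05, adjusted p = 0.0929).

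Sema3e, the ligand of plexin D1, fell less than these and separated the treatments. It stood at 158, 174, 163 and 163 CPM in controls, at 101, 105, 103 and 105 CPM with A1, and at 95, 91.6, 85 and 87.1 CPM with A1-OVA. The 3 groups did not overlap, with A1-OVA the lowest. The level fell to 0.628 of control with A1 (log2 fold change -0.67, SE 0.04, adjusted p = 5.78e-12) and to 0.544 with A1-OVA (-0.88, SE 0.04, adjusted p = 8.58e-14). Between A1-OVA and A1 the log2 fold change was -0.21 (SE 0.04, adjusted p = 0.00289). Across all tested genes, the groups A1-OVA and A1 did not overlap, in either direction, in 18.1%.

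Sema3f, which acts mainly through neuropilin 2, stood at 45.8, 40.4, 43.2 and 44.2 CPM in controls. It stood at 29.1, 27.3, 29.1 and 25.6 CPM with A1, and at 26.6, 30.5, 31.6 and 28.3 CPM with A1-OVA. Treated samples lay below all controls, and the treatments overlapped. The log2 fold change was -0.64 with A1 (SE 0.06, adjusted p = 1.06e-08) and -0.57 with A1-OVA (SE 0.06, adjusted p = 5.73e-08).

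Sema3b, the neighbor of Sema3f on chromosome 9, was barely expressed. It had 3 to 11 counts in the 12 samples, or 0.229 to 0.84 CPM, and was not tested in the fit used here. Fitted with no filter on low counts over 16071 genes, its log2 fold change with A1 was 0.05 (95% interval -0.83 to 0.93, adjusted p = 0.956). This interval holds 0 as well as the changes of Sema3e and Sema3f, so that these could not be told apart for Sema3b.

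Of the class 4 members, Sema4b rose and Sema4c was not called. Sema4b stood at 10.6, 11.6, 13.1 and 12.5 CPM in controls, at 15.1, 16.9, 14.7 and 16.4 CPM with A1, and at 14.5, 15.5, 15.3 and 14.7 CPM with A1-OVA. It was 1.32-fold higher with A1 (log2 fold change 0.40, SE 0.08, adjusted p = 1.52e-04) and 1.25-fold higher with A1-OVA (0.33, SE 0.08, adjusted p = 0.00109), and no treated sample overlapped the controls. Sema4c, a ligand of plexin B2, stood at 17.8, 16.3, 19.2 and 18.8 CPM in controls, at 17.3, 19.6, 16.6 and 17.9 CPM with A1, and at 16.7, 17, 18.6 and 19.3 CPM with A1-OVA. The groups of Sema4c overlapped fully, and its log2 fold change with A1 was -0.02 (95% interval -0.17 to 0.14, adjusted p = 0.874).

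Of the 7 tested members other than Sema7a, 1 was higher and 5 were lower than control with A1, against 62.7% of all tested genes that differed in either direction (31.7% higher and 31.1% lower). The counts with A1-OVA were also 1 and 5, against 57.6% of all tested genes (29.7% higher and 27.9% lower). A difference from control was thus common among all genes. A fall by at least 1 in log2 was rarer, at 3.64% of all tested genes with A1 and 2.55% with A1-OVA, and 3 of the 7 members, Sema3a, Sema3c and Sema3d, had one in each comparison. The median log2 fold change of the 7 was -0.67 with A1 and -0.88 with A1-OVA, while the median over all tested genes was -0.00172 and 0.00355. The groups did not overlap in 6 of the 7 members in each comparison, against 54.4% and 49.4% of all tested genes. These genes had been chosen with results of the same samples in view. From such bulk samples, fewer cells that express a gene and less RNA of it per cell cannot be told apart.

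**Figure D2:**
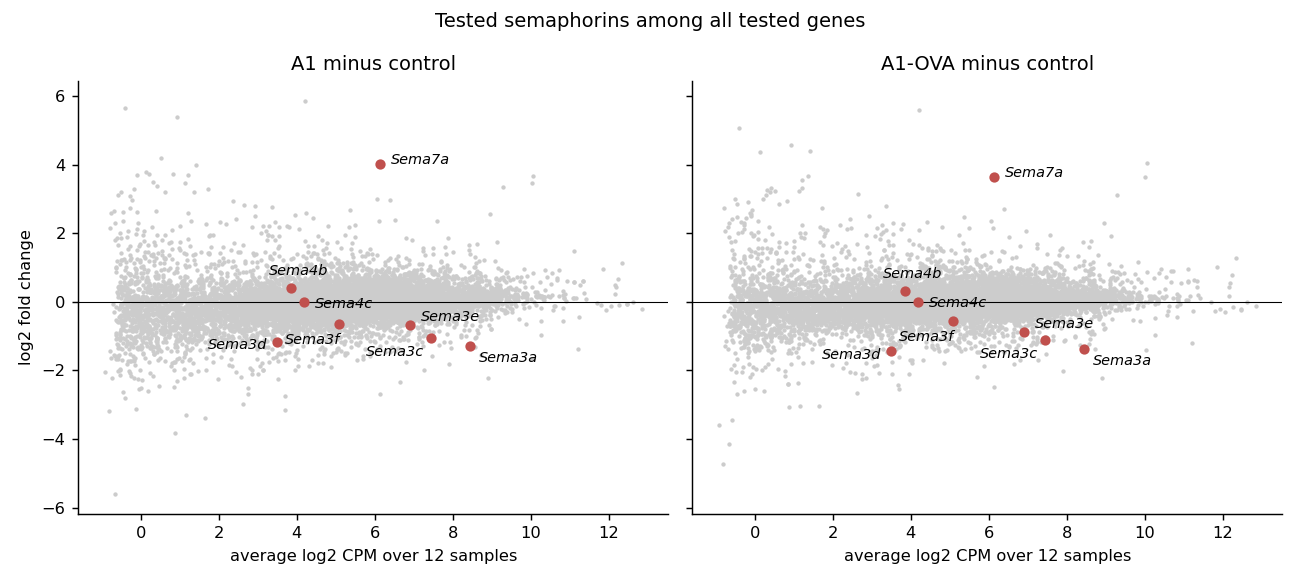
Log2 fold change against control (vertical axis) by average level in log2 CPM over 12 samples (horizontal axis) for the 11314 tested genes (grey) with A1 (left) and A1-OVA (right), the 8 tested members in red. Sema7a lies at 4.01 and 3.63, far above the body of genes at its level, and Sema3a, Sema3c and Sema3d lie at or below -1.06.

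Levels of different genes were compared per length, in RPKM, which scales read counts to library size and to the summed length of a gene's exons in kb. In controls, Sema3a led the 20 semaphorin genes with 41.5 ± 1.92 RPKM, followed by Sema3c with 37.4 ± 1.54, Sema3e with 17.7 ± 0.718, Sema3f with 8.35 ± 0.434 and Sema4c with 3.93 ± 0.283 RPKM (SD, n = 4). Sema7a came next with 2.19 ± 0.22 RPKM, and it overlapped Sema4b (2.12 ± 0.196) and Sema3d (2.1 ± 0.13) in its range over samples (with the longest transcript as the length, Sema7a was at rank 9 in controls). With A1, Sema7a led with 35.2 ± 2.61 RPKM (SD, n = 4), ahead of Sema3c (17.9 ± 0.799) and Sema3a (17.2 ± 0.682), whose ranges overlapped. With A1-OVA, Sema7a led with 27 ± 0.643 RPKM. Divided by the longest transcript in place of the union of exons, Sema3a had 40.1 ± 1.59 RPKM with A1 and led, and Sema7a was at rank 2 with either treatment.

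The makeup of semaphorin RNA shifted from class 3 to Sema7a. Summed over the 20 genes, semaphorin RNA came to 118 ± 3.26 RPKM in controls, 97 ± 2.62 with A1 and 85.5 ± 0.781 with A1-OVA (SD, n = 4). The 7 class 3 genes held 90.8% ± 0.733 of it in controls, 54.3% ± 1.67 with A1 and 57.7% ± 1.02 with A1-OVA. Sema7a held 1.85% ± 0.224 in controls, 36.2% ± 1.74 with A1 and 31.6% ± 0.806 with A1-OVA. With the longest transcript as the length, the share of Sema7a was 1.1% in controls, 25.8% with A1 and 22.1% with A1-OVA. These shares rest on Sema7a, the gene chosen for its rise, and no test was made of them.

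**Figure D3:**
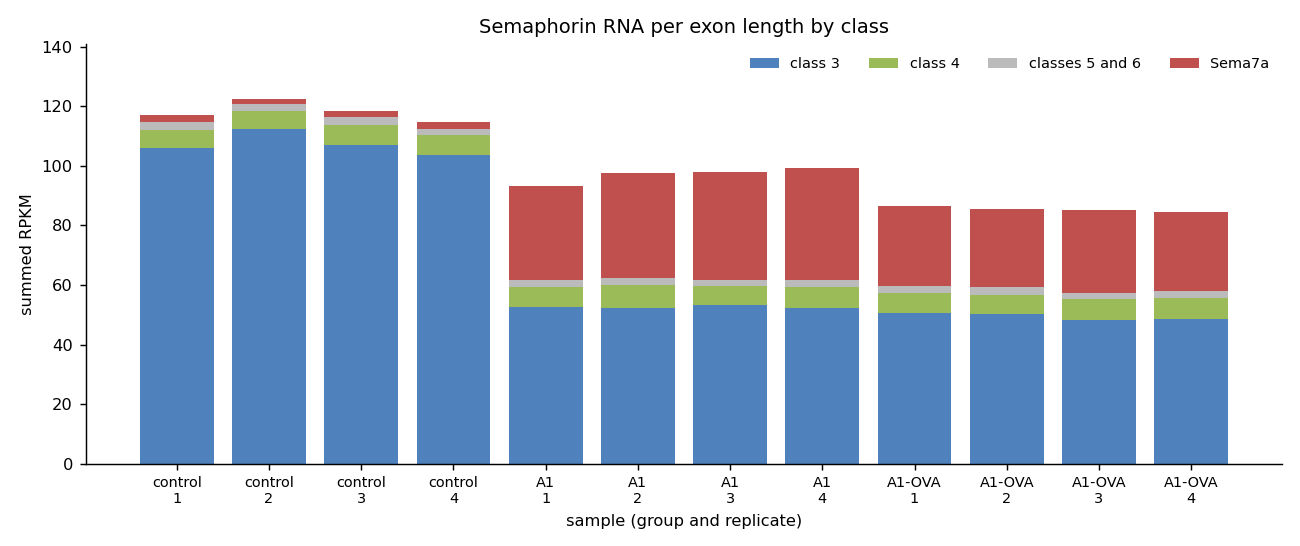
Summed RPKM of the 20 semaphorin genes in each sample (vertical axis, stacked by class, with Sema7a as its own part) for the 12 samples on the horizontal axis. Class 3 RNA falls from 104 to 112 RPKM in the control samples to 48.2 to 53.4 RPKM in the treated samples, and Sema7a rises from at most 2.4 to at least 26.4 RPKM.

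Of the other 11 semaphorin genes, 5 were tested, and 40% of these were called with A1 and 20% with A1-OVA, against 62.7% and 57.6% of all tested genes. Sema6c (log2 fold change -0.64, SE 0.19, adjusted p = 0.00608) and Sema4g (-0.70, SE 0.25, adjusted p = 0.0198) were lower with A1, both at a low level of 2.8 ± 0.599 and 1.21 ± 0.19 CPM in controls (SD, n = 4). With A1-OVA, 1 of the 5 was lower, Sema6d (log2 fold change -0.51, SE 0.19, adjusted p = 0.0284). Sema6d also separated the treatments, with 2.14 to 2.53 CPM with A1 and 1.09 to 1.84 CPM with A1-OVA (log2 fold change -0.64, SE 0.20, adjusted p = 0.036). These genes have few counts. The call of Sema4g was lost without control sample 3 (adjusted p = 0.0623) or A1 sample 4 (0.0644), that of Sema6d against control without control sample 4 (0.116), among others, and that of Sema6d between the treatments without 6 of the 8 treated samples in turn (up to 0.0896). With DESeq2 the counts were 1 with A1 and 0 in the other 2 comparisons.

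The tested plexins and neuropilins had log2 fold changes from -0.50 to 0.64. Of the 8 tested of the other 10 plexins and neuropilins, 2 were higher and 3 lower with A1, and 2 were higher and 4 lower with A1-OVA, or 62.5% and 75% called, against 62.7% and 57.6% of all tested genes. Neuropilin 2 fell from 377 to 405 CPM in controls to 269 to 301 CPM with A1 (log2 fold change -0.44, SE 0.04, adjusted p = 2.03e-08), and the change with A1-OVA was -0.43 (SE 0.04, adjusted p = 2.77e-08). Neuropilin 1, the coreceptor of Sema3a, stood at 179 to 195 CPM in controls and 180 to 196 CPM with A1 (log2 fold change -0.01, 95% interval -0.09 to 0.08, adjusted p = 0.895). With A1-OVA, neuropilin 1 was lower than control (-0.24, SE 0.04, adjusted p = 3e-05) and lower than with A1 (-0.23, SE 0.04, adjusted p = 0.000656).

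Plexin D1, which binds Sema3e, fell from 181 to 205 CPM in controls to 132 to 136 CPM with A1 (log2 fold change -0.50, SE 0.04, adjusted p = 6.69e-10) and to 147 to 155 CPM with A1-OVA (-0.33, SE 0.04, adjusted p = 3.29e-07). The A1-OVA samples lay above the A1 samples (log2 fold change 0.16, SE 0.04, adjusted p = 0.0106), whereas its ligand Sema3e was lower there. Plexin A1 rose from 139 to 164 CPM in controls to 201 to 230 CPM with A1 (log2 fold change 0.58, SE 0.05, adjusted p = 5.48e-09), and the change with A1-OVA was 0.64 (SE 0.05, adjusted p = 1.1e-09). Plexin A3 was also called higher, by 0.46 in log2 with A1-OVA (SE 0.13, adjusted p = 0.00367), but its 4 A1-OVA samples stood at 23.8, 26.6, 39.5 and 39.2 CPM and overlapped the controls at 19.7 to 27.1 CPM. Plexin B1 was low, at 6 to 22 counts, with a log2 fold change of -0.48 with A1 (95% interval -1.09 to 0.13, adjusted p = 0.16).

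**Figure D4:**
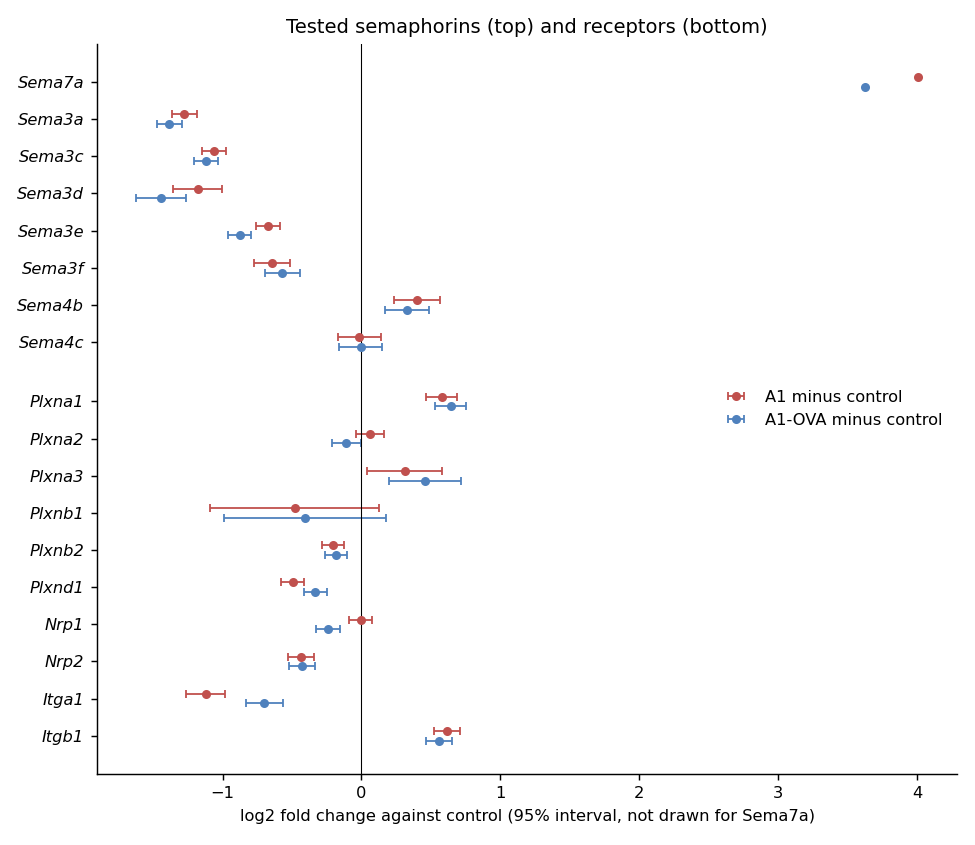
Log2 fold change against control (horizontal axis) of the 8 tested members and of 10 receptor genes (vertical axis), with A1 in red and A1-OVA in blue and 95% intervals of the fit as bars, left out for Sema7a. The class 3 members lie between -1.44 and -0.57, Sema4c lies close to 0, and the receptors lie between -1.12 and 0.64.

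An integrin through which Sema7a acts is made of an alpha 1 and a beta 1 chain, and the 2 genes moved apart. Itga1 was the only alpha chain gene of this route looked at here. Itga1 fell from 38.8, 42.7, 45.8 and 39.1 CPM in controls to 18.9, 20, 18.1 and 19.5 CPM with A1 (log2 fold change -1.12, SE 0.07, adjusted p = 4.18e-12). With A1-OVA it stood at 24.3, 24.1, 26.1 and 27.9 CPM, lower than control (-0.70, SE 0.06, adjusted p = 4.36e-09) and higher than with A1 (0.42, SE 0.07, adjusted p = 5.18e-04). Itgb1, whose product pairs with many alpha chains, rose from 1390 to 1560 CPM in controls to 2110 to 2330 CPM with A1 (log2 fold change 0.62, SE 0.05, adjusted p = 9.13e-11) and by 0.56 with A1-OVA (SE 0.05, adjusted p = 5.09e-10). Of the 6 genes of this route, 3 rose and 2 fell with A1, where 62.7% of all tested genes were called. Among those that rose was Src, a kinase activated downstream of integrins (log2 fold change 0.55 with A1 and 0.62 with A1-OVA, SE 0.04 each, adjusted p = 3.64e-10 and 4.34e-11).

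Inside the cell, plexins act through small GTPases, kinases and actin regulators. Of 28 such genes 25 were tested, and 8 rose and 5 fell with A1, while 9 rose and 6 fell with A1-OVA, or 52% and 60% of those tested, against 62.7% and 57.6% of all tested genes. Rnd1, a GTPase that binds the intracellular part of plexins, rose the most, from 12.4, 13.3, 12.6 and 14.2 CPM in controls to 48.7, 47, 54.1 and 52.3 CPM with A1 (log2 fold change 1.95, SE 0.06, adjusted p = 1.04e-16), and by 1.96 with A1-OVA (SE 0.06, adjusted p = 1.08e-16). Mical2, an enzyme that oxidizes actin, rose by 1.08 with A1 and 1.05 with A1-OVA in log2 (SE 0.04 each, adjusted p = 2.98e-15 and 5.09e-15). Rnd3, a related GTPase, went the other way, by -0.66 and -0.50 (SE 0.04 each, adjusted p = 2.53e-12 and 2.31e-10). Fyn, a kinase of the Src family, rose by 0.55 and 0.62 (SE 0.05 each, adjusted p = 2.96e-09 and 4.13e-10). Fes, a kinase that acts downstream of Sema3a, fell with A1 (-0.54, SE 0.12, adjusted p = 4.13e-04), and its change with A1-OVA was -0.24 (SE 0.11, adjusted p = 0.0677).

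Some markers of MSCs also differed between the groups. The summed level of the 11 markers went from 8150 to 8550 CPM in controls to 5670 to 6050 CPM with A1 and 5790 to 6240 CPM with A1-OVA. Most of this fall was Cxcl12, which averaged 3910 CPM in controls and 1510 CPM with A1, while Col1a1 averaged 3330 and 3250 CPM and Pdgfrb 389 and 387 CPM. With A1, 1 of the 9 tested rose and 4 fell, or 55.6%, against 62.7% of all tested genes. Cxcl12, the chemokine that retains blood stem cells in the marrow, fell (log2 fold change -1.37, SE 0.04, adjusted p = 3.05e-17), as did Pdgfra (-0.99, SE 0.05, adjusted p = 7.1e-13), Vcam1 (-0.95, SE 0.04, adjusted p = 4.74e-15) and Ly6a (-0.59, SE 0.07, adjusted p = 8.77e-08), while Cd44, a hyaluronan receptor, rose (1.39, SE 0.04, adjusted p = 2.37e-17). The summed leukocyte markers were 7.99 to 8.39 CPM in controls, 10.8 to 13.3 CPM with A1 and 8.92 to 11.1 CPM with A1-OVA. Nearly all of it was Cd14 (log2 fold change with A1 0.57, SE 0.09, adjusted p = 9.29e-06). The highest of the other leukocyte markers was Csf1r, at 1 to 14 counts, while Tyrobp, Cd52 and Cd3e were at 0. The part of these shifts in the semaphorin values was not tested.

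Of the 10 genes, 6 lie in 2 stretches of the genome. Sema3d, Sema3a, Sema3e and Sema3c follow one another on the plus strand of chromosome 5, with 536.5 kb between Sema3d and Sema3a and 422.7 kb between Sema3a and Sema3e, and 3.32 Mb, with 16 protein-coding genes, on to Sema3c. All 4 fell. Sema3b and Sema3f lie 72.3 kb apart on chromosome 9, with Gnai2, Slc38a3 and Gnat1 between them, and Sema7a lies 49.63 Mb away on the same chromosome. Gnai2, a G protein subunit gene in the stretch between Sema3b and Sema3f, had a log2 fold change of -0.02 with A1 (adjusted p = 0.643).

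The genes around Sema7a changed little beside it. Of the 4 tested, Edc3 was higher with A1 (log2 fold change 0.23, SE 0.06, adjusted p = 0.00167), Clk3 was lower (-0.39, SE 0.06, adjusted p = 8.1e-06) and Arid3b had a change of -0.10 (adjusted p = 0.672). Ubl7, whose start lies 29.1 kb before that of Sema7a, had a log2 fold change of -0.14 with A1 (SE 0.06, adjusted p = 0.0613), and Cyp11a1, 66.3 kb on the other side, had at most 1 count. Within 250 kb of the members' starts lay 59 further protein-coding genes, of which 38 were tested. With A1, 12 of these were higher and 9 lower, 55.3% against 62.7% of all tested genes. In the annotation 13 other genes, none of them annotated as protein-coding, overlap 6 of the members, with at most 19 counts in a sample. The reads were counted by strand, but several of these genes, such as Gm42675 in Sema3a, lie on the member's own strand. Strand does not separate the reads of those.

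**Figure D5:**
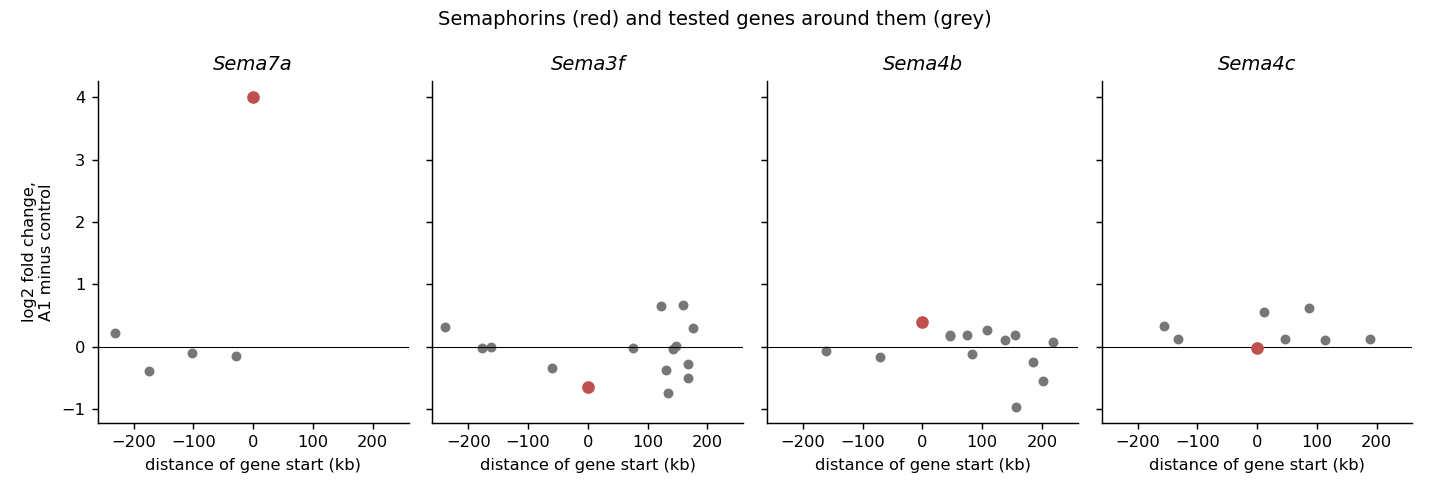
Log2 fold change with A1 against control (vertical axis) of Sema7a, Sema3f, Sema4b and Sema4c (red, at 0) and of the tested protein-coding genes around each (grey) by the distance between gene starts in kb (horizontal axis). Sema7a lies at 4.01, whereas the 4 tested genes around it lie between -0.39 and 0.23.

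Several genes followed the pattern of Sema7a closely over the 12 samples. By Pearson's r of log2 CPM among 10447 genes, the closest were Plaur, the urokinase receptor (r = 0.998), Hbegf, a ligand of the EGF receptor, Hes1, a transcriptional repressor of the Notch pathway, Tagln2, an actin binding protein, and Hmga2, an architectural chromatin protein, all with nearly the same r. Such values rest on the step between control and treated samples, which many genes share: 95 genes had an r of at least 0.99. Plaur stood at 13.2 to 14 CPM in controls, 62.9 to 65.4 CPM with A1 and 58.4 to 61.7 CPM with A1-OVA. Its log2 fold change between the treatments, -0.11, is only a description, since Plaur was picked for likeness over these samples. Hmga2 stood at 116 to 131, 714 to 758 and 594 to 626 CPM in the same groups and had the highest r of the 5 over the 8 treated samples alone (0.969). By Spearman's rank correlation none of these 5 was among the 5 closest. No likeness was computed for Plxnc1, which was not tested.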

How the data were processed

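Strand-specific polyA libraries from 12 MSC samples were sequenced in pairs on a HiSeq2000. The authors deposited raw counts per gene, with no normalization, made with STAR 2.7 on GRCm38 and featureCounts 2.0 (the submitters' processing notes also name bcl2fastq 2.20). All 55487 genes are listed, so the low-count filter and the limit to coding genes in the study's methods had not been applied to these deposited counts.

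Symbols, biotypes and positions came from GENCODE M21, which holds 99.53% of the gene identifiers. The 21974 protein-coding genes were filtered with filterByExpr and scaled by TMM. The quasi-likelihood test of edgeR 4.0.16 (R 4.3.3) was applied in 1 fit of 3 groups and 12 samples, with Benjamini-Hochberg adjustment over 11314 genes and a threshold of 0.05. SEs and 95% intervals came from this fit. Simulated data in which few genes changed were used to check its calls and fold changes, not its SEs or intervals. DESeq2 1.42.0, the tool of the study, other scalings and filters and leaving out each sample were alternatives. CPM and RPKM were computed from the counts. Totals of 13702348 to 16881995 counts per sample and 4 samples per group limit the precision. Samples of a group differed by more than sampling noise (chi-square per degree of freedom 1.925 to 6.874), so none was merged as a repeated library. This does not show that they are separate cultures. In A1-OVA, samples 1 and 2 (2.421) and samples 3 and 4 (2.562) were closer to each other than the remaining pairs (4.997 to 5.823). Pairs ranged from 1.925 to 6.874 in controls and from 2.04 to 4.722 with A1. The reason for this was not tested.

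The members and all gene lists were chosen with earlier results of these data known. Named were all members, the genes of each list other than the neighbors that passed the threshold with a log2 fold change beyond 0.5 in size in a comparison with control (at most 6 a list), Nrp1, Nrp2, Plxnb1, Plxnd1, Itga1 and Itgb1, the 5 genes most like Sema7a, and the nearest neighbors of Sema7a. Plxna3, Gnai2, Edc3, Clk3, Arid3b and the marker genes given for presence were chosen after their values were seen.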

Additional observations from a re-analysis of the deposited data

Results flagged for a closer look

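The 2 treatments were compared with the same control samples. Of 39 named genes, 13 were flagged for a difference between A1-OVA and A1, where 12.9% of all tested genes differed. The named genes were picked in part for a change against control or for likeness to Sema7a, so this count is no result about them. For Hbegf and Hmga2, picked for likeness to Sema7a over these samples, the difference is only a description. The members among the 13 were Sema3e (log2 fold change A1-OVA against A1 of -0.206, adjusted p = 0.00289) and Sema7a (-0.382). The value of Sema7a is only a description, since it was chosen on these samples. Nrp1 (-0.233), Sema6d (-0.636), Cd44 (-0.19), Pdgfra (-0.171), Cd14 (-0.289), Hbegf (-0.198) and Hmga2 (-0.265) were also lower with A1-OVA. Plxnd1 (0.164), Itga1 (0.421), Rnd3 (0.157) and Cxcl12 (0.16) were higher with A1-OVA.

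In 117 groups of 4 samples, formed from 39 named genes, 6 single samples stood apart from the other 3, and chance gives about 1 in 20 groups. Hbegf stood at 56.1 CPM in A1 sample 1 against 62.6 to 63.7 CPM in the others. Hmga2 stood at 594 CPM in A1-OVA sample 4 against 625 to 626 CPM. Ubl7 stood at 16 CPM in A1-OVA sample 3 against 18 to 18.4 CPM. Plxnc1 (0 CPM in A1 sample 1) and Cyp11a1 (0.0763 CPM in A1 sample 2 and 0.0616 CPM in A1-OVA sample 4) were at or below 3 counts throughout, so that a single read set these values apart.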

How the results depend on the processing

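No called result reversed its direction under any alternative. The counts of members that differed from control stayed within 1.5 times the reported ones with either treatment over 20 alternatives. Changes with A1 that were not called passed through 0 in Sema4c (-0.06 to 0.02) and Nrp1 (-0.04 to 0.01). The log2 fold change of Sema7a ranged from 3.94 to 4.06 with A1 and from 3.56 to 3.68 with A1-OVA, and that of Sema3e between the treatments had an adjusted p of 0.000699 to 0.0138. Other scalings moved the median of all genes by less than 0.03.

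The counts that moved were small and came from genes of few counts or near the threshold, and the cause was not tested. The 2 other semaphorins lower with A1 became 1 with DESeq2 and 1 when at least 10 counts were required in every sample. The number called with A1 was 3 with no filter on low counts and without control sample 2. It was also 3 without A1 sample 1, 2 or 3 or A1-OVA sample 2, 3 or 4. The single other semaphorin lower with A1-OVA became 0 with DESeq2, and 0 to 1 without single samples (0 without control sample 2 or 4 or A1-OVA sample 1 or 3). The single one between the treatments, Sema6d, became 0 with DESeq2 and 0 to 1 without single samples (0 without A1 sample 1, 2 or 4 or A1-OVA sample 1, 3 or 4). The single gene of the integrin route between the treatments became 2 with no filter and 2 in a fit of only these groups, with 1 to 2 without single samples (2 without control sample 1 or 2). The 2 neighbors between the treatments became 1 with upper-quartile scaling and 1 to 4 without single samples (4 without A1-OVA sample 1, and 1 without control sample 3, A1 sample 1, 3 or 4, or A1-OVA sample 2 or 4). Of other named genes between the treatments, Pdgfra lost its call in 11 alternatives (adjusted p up to 0.149), Cd14 in 5 (up to 0.113) and Cxcl12 in 1 (0.055). Fes gained one with A1-OVA against control without A1-OVA sample 3 (0.0326) and with upper-quartile scaling (0.0475), as did Plxnb1 without that sample (0.039). Ubl7 gained one as lower with upper-quartile scaling with A1 (0.027), and in 8 alternatives with A1-OVA. Of the 5 genes most like Sema7a, 0 remained by Spearman's correlation. Sema7a, at rank 1 per length with A1, was at rank 2 with the longest transcript.

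The sample numbers do not mark a stated pairing. After the group means were taken off, samples sharing a number had an average correlation of 0.0215 (-0.132 to 0.156), and the others one of -0.00704. With the replicate number as a block, 6 members other than Sema7a differed from control with either treatment, as without it. Sema3e stayed called between the treatments (log2 fold change -0.206). The integrin route between the treatments had 2 genes in place of 1.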
